A study of Mus musculus with 18 samples.

Results

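The COMPASS genes encode the enzymes that methylate lysine 4 of histone H3 (H3K4) in mammalian cells, together with the core subunits these enzymes share. The 10 genes described here were chosen by name. They are 6 catalytic genes (Kmt2a, Kmt2b, Kmt2c, Kmt2d, Setd1a and Setd1b) and 4 core genes (Wdr5, Ash2l, Rbbp5 and Dpy30). All 10 were found among the 14411 genes of the deposited tables, and all 10 were present in both cell types and passed the filter on low counts.

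COMPASS complexes place methyl groups on H3K4, a mark of active promoters and enhancers. Each complex holds a single catalytic subunit of the KMT2 or SETD1 type bound to a module of WDR5, RBBP5, ASH2L and DPY30, which the catalytic subunit needs for most of its activity. SETD1A and SETD1B carry out much of the trimethylation at promoters, KMT2A and KMT2B act at developmental genes and at promoters rich in CpG, and KMT2C and KMT2D place the monomethyl mark at enhancers. In mouse pluripotent cells these enzymes are known for their part in the change of enhancer use between the naive and the primed state and in keeping silent developmental promoters poised.

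RNA was measured by sequencing in mouse embryonic stem cells (ESCs), which represent naive pluripotency, and in epiblast-like cells (EpiLCs), which are derived from them and stand closer to the primed epiblast. In each cell type, 3 libraries came from cells exposed to 100 nM of Δ9-tetrahydrocannabinol (Δ9-THC), the main psychoactive compound of cannabis, and 3 from cells given only the ethanol vehicle, which the labels call mock-treated. All 12 libraries came from BVSC cells, an ESC line with the fluorescent reporters Blimp1::mVenus and Stella::ECFP. The study describes its ESC data as coming from female cells, and the cells behind each library are not named further. ESCs were grown in 2i+LIF without feeder cells, EpiLCs were induced with activin A and bFGF, and exposure was continuous over both stages. The question behind the comparison is whether the genes for the H3K4 methylation machinery differed with Δ9-THC exposure in either cell type, and whether the long catalytic genes differed from the mostly shorter core genes.

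The deposited values were batch-adjusted counts, with 23427551 to 32096698 counts per library. The naive genes Esrrb and Tfcp2l1 stood at 887 and 1279 CPM (counts scaled to a common library size) in vehicle ESCs against 28.1 and 19.9 in vehicle EpiLCs. The formative gene Dnmt3b stood at 76.9 CPM in ESCs against 932 in EpiLCs, and Fgf5 was listed in the EpiLC table only, so the cell type labels held against their markers. Of 14 markers of other cell types, 7 were listed in each table, and Gata6, Sox17, Pdgfra, Col3a1 and Postn were in neither. Their summed level was 82.6 to 87.2 CPM in vehicle and 90.7 to 95.1 CPM in exposed ESCs, and 47.1 to 48.5 CPM in vehicle and 45.3 to 46.6 CPM in exposed EpiLCs. Germ cell markers made up most of these sums, with 61.7 to 69.4 CPM in vehicle ESCs and 36.2 to 38.5 CPM in vehicle EpiLCs. Of these, Dppa3 had a mean of 47.9 CPM in vehicle ESCs and 20.0 CPM in vehicle EpiLCs. Whether this RNA came from other cells was not tested. The sums moved with the exposure, and their part in the results was not tested. In bulk RNA, fewer cells that express a gene and less RNA per cell cannot be told apart. Libraries of the same replicate number deviated in opposite directions from their group means, with a correlation across genes between -0.987 and -0.977. The mean of a same-numbered vehicle and exposed library was therefore almost the same in all 3 replicates, within 0.033 on the log2 CPM scale for every member. The 3 vehicle and the 3 exposed libraries of a cell type were not independent of each other. The SDs, SEs and p-values below therefore rest on fewer independent values than the 6 libraries and may be too small. The shares of all genes called or under a p threshold may likewise be too large. The batches that the authors adjusted for are not given in the sources used here.

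Most of the catalytic genes were long. In the GENCODE annotation of GRCm38, Kmt2c spans chr5:25271798-25498783 on the minus strand with 20.3 kb of exons. Its closest relative Kmt2d spans chr15:98831669-98871204 on the minus strand with 19.9 kb. Kmt2a (chr9:44803355-44881296, minus strand) has 16.7 kb of exons and Kmt2b (chr7:30568858-30588726, minus strand) has 9.60 kb. Setd1b (chr5:123142193-123168629, plus strand) has 12.1 kb and Setd1a (chr7:127776670-127800122, plus strand) has 6.80 kb. Of the exon bases of Setd1a, 52.3% also lie in exons of the annotated genes 9430064I24Rik and Gm49388. Reads there could not be assigned to a single gene, so the level of Setd1a is uncertain. Its CPM per kb below is taken over all exon bases and may be too low, so its rank among the catalytic genes is uncertain too.

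The core genes were shorter, with an exception in Ash2l. Dpy30 (chr17:74299474-74323944, minus strand) has 1.15 kb of exons, Wdr5 (chr2:27515157-27536535, plus strand) has 3.60 kb and Rbbp5 (chr1:132477365-132505659, plus strand) has 3.93 kb. Ash2l (chr8:25815996-25847694, minus strand) has 8.97 kb in the union of its exons, more than Setd1a, although its longest annotated transcript is 3702 bases against 6487 for Setd1a. GC content separated the genes differently. Kmt2b, Kmt2d, Setd1a and Setd1b had exons of 56.7% to 58.3% GC, whereas Kmt2c stood at 45.4%, Kmt2a at 50.6% and the core genes at 46.3% to 51.1%.

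The promoters of Kmt2a and Kmt2c are shown because these were the members whose exposed and vehicle libraries did not overlap in EpiLCs. The sequences are from RefSeq on GRCm38.p6, run 5′ to 3′ on the strand of the gene from 250 bases before its start to 50 after, and have each CpG in capitals. A promoter entry was matched for 7 of the 10 members.
Kmt2a, chr9:44881240-44881539, minus strand: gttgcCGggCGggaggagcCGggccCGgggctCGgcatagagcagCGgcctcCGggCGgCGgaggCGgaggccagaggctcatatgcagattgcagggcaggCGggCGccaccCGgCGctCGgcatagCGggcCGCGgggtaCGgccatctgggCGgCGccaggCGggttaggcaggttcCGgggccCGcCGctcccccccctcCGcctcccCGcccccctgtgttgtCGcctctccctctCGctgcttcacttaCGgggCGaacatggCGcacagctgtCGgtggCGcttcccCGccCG
Kmt2c, chr5:25498734-25499033, minus strand: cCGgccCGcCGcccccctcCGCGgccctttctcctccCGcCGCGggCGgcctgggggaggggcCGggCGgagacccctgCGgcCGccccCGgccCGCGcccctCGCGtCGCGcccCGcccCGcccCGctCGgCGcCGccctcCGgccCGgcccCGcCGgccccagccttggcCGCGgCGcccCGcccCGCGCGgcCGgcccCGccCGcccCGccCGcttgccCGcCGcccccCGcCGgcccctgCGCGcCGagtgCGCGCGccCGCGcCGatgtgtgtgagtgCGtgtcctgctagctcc
The Kmt2a window held 36 CpG and the Kmt2c window 56, more than 93.8% and 99.8% of the 32851 promoter windows of the same length, whose median was 7. High CpG content was shared by members that did not separate, such as Setd1a with 35 CpG, and Rbbp5 held 16. Dpy30 had several windows, with 39, 34, 30 and 1 CpG. These counts describe the letters of the windows only.

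Per kb of exon, the core genes were expressed above every catalytic gene in both cell types. In vehicle ESCs, Wdr5, the WD40 protein that docks the catalytic subunit, stood highest at 137 ± 7.14 CPM per kb (SD, n = 3). It was followed by Dpy30, a small dimeric subunit that binds ASH2L, at 104 ± 4.69 CPM per kb. Ash2l, whose SPRY domain helps activate the enzyme, stood at 52.5 ± 0.0787 CPM per kb. Rbbp5, the scaffold that joins ASH2L and WDR5 to the catalytic domain, stood at 38.3 ± 0.825 CPM per kb, above the highest catalytic gene by a ratio of 2.34 ± 0.110 (SD of the ratio in 3 libraries). These 4 levels differed by more than the spread between libraries.

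Among the catalytic genes of vehicle ESCs, Kmt2b led with 16.4 ± 0.527 CPM per kb. Kmt2d followed at 6.40 ± 0.293 CPM per kb and Setd1a at 5.23 ± 0.256. Kmt2a at 4.83 ± 0.392 and Kmt2c at 4.53 ± 0.184 CPM per kb did not differ from each other, nor Kmt2a from Setd1a, beyond their spread. Setd1b was the lowest at 2.95 ± 0.115 CPM per kb. With the longest annotated transcript in place of the exon union, a choice made after seeing the data, Rbbp5 remained 2.40 times Kmt2b. Kmt2c then moved to 6.15 CPM per kb, above Setd1a at 5.48 and Kmt2a at 4.89.

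In vehicle EpiLCs the order of the leading genes was changed. Dpy30 stood first at 118 ± 10.4 CPM per kb and Wdr5 second at 61.1 ± 3.54, followed by Ash2l at 41.6 ± 1.93 and Rbbp5 at 16.6 ± 2.04. Kmt2b again led the catalytic genes, at 11.8 ± 0.649 CPM per kb, and Rbbp5 exceeded it by a ratio of 1.41 ± 0.160. Kmt2a at 5.09 ± 0.239, Kmt2d at 4.78 ± 0.384 and Setd1a at 4.04 ± 0.547 CPM per kb had neighbouring levels within their spread. Kmt2c at 2.61 ± 0.131 and Setd1b at 2.45 ± 0.304 CPM per kb were the lowest and did not differ beyond their spread. By the longest transcript, Ash2l at 101 CPM per kb stood above Wdr5 at 76.1.

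**Figure D1:**
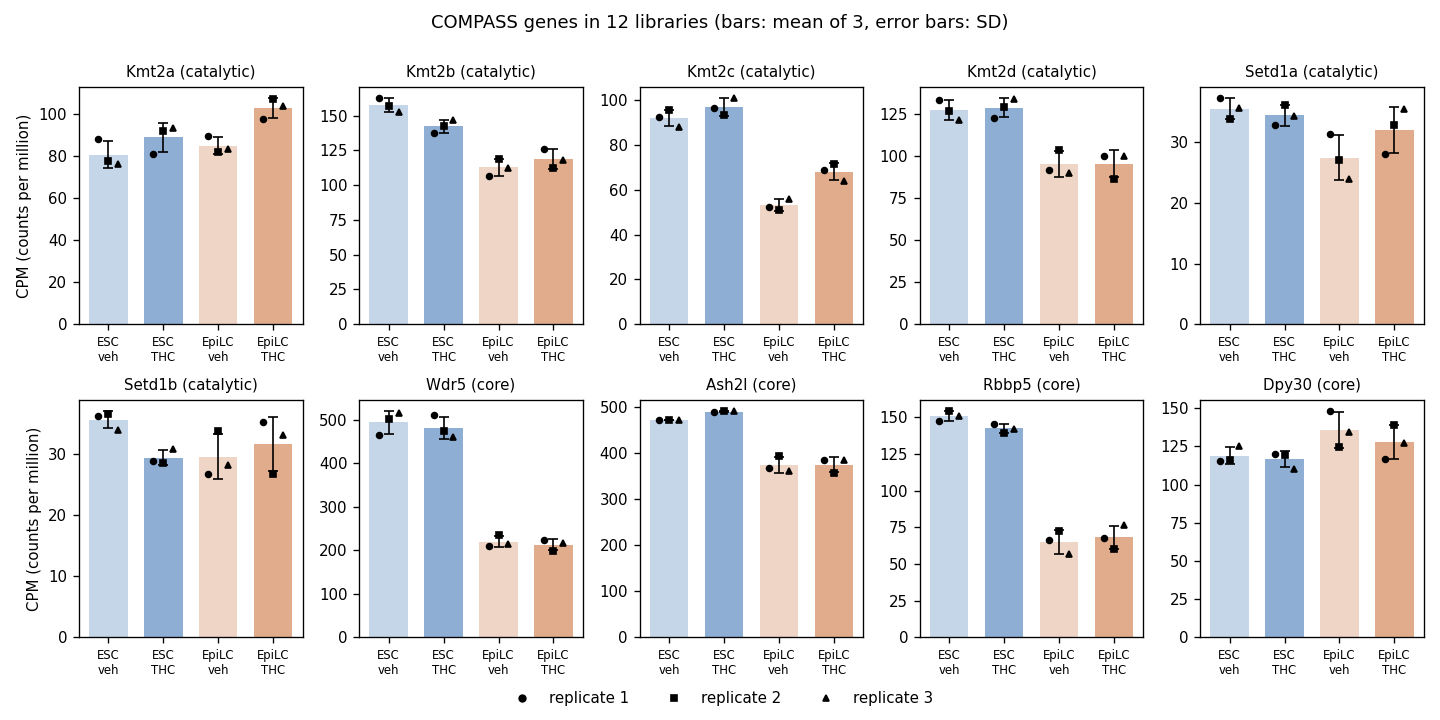
Level of each COMPASS gene in CPM (vertical axes from 0, a separate scale for each gene) in the 12 libraries, with bars for the mean of 3 libraries, error bars for the SD and points for the libraries by replicate number. Wdr5 and Rbbp5 stood lower in EpiLCs than in ESCs, and Kmt2c showed 63.8 to 71.3 CPM in exposed EpiLCs against 50.7 to 55.9 CPM in vehicle EpiLCs.

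Between the cell types, 8 of the 10 members stood lower in vehicle EpiLCs than in vehicle ESCs. The tables of the cell types were adjusted separately, so these differences are given without a test. Rbbp5 was measured at 147, 154 and 151 CPM in the vehicle ESC libraries and at 66.3, 72.4 and 56.5 CPM in the vehicle EpiLC libraries, a log2 ratio of -1.21 (0.432-fold). Wdr5 was measured at 466, 502 and 515 CPM in vehicle ESCs and at 211, 234 and 214 CPM in vehicle EpiLCs, a log2 ratio of -1.17 (0.445-fold). These were the lowest ratios of the members, near the 8th percentile of the 12410 genes in both tables (7.57 for Rbbp5 and 8.03 for Wdr5), whose median log2 ratio was 0.0024.

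Among the catalytic genes, Kmt2c had the lowest ratio, with 88.1 to 95.6 CPM in vehicle ESCs and 50.7 to 55.9 CPM in vehicle EpiLCs, a log2 ratio of -0.80. Kmt2b followed with -0.48, Kmt2d with -0.42, Setd1a with -0.37 and Setd1b with -0.27. Ash2l stood at -0.33. Kmt2a differed by less than its spread, with a log2 ratio of 0.074, and Dpy30 was the only core gene with a higher mean in EpiLCs, by 0.19. The groups did not overlap between cell types for Kmt2b, Kmt2c, Kmt2d, Setd1a, Setd1b, Wdr5, Ash2l and Rbbp5. For Dpy30 they overlapped, with 116 to 125 CPM in ESCs and 124 to 148 CPM in EpiLCs. The share of all genes that separate between the cell types was not computed, so the separation is not shown to be particular to the members. Over all genes in both tables, the lower and upper quartiles of the log2 ratio were -0.480 and 0.478.

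In ESCs, Δ9-THC exposure went with a lower level of Setd1b, and no other member passed the test. Setd1b, a catalytic subunit of the SETD1 complexes, was measured at 36.1, 36.6 and 34.0 CPM in the vehicle libraries and at 28.9, 28.6 and 30.7 CPM in the exposed libraries. All 3 exposed libraries lay below all 3 vehicle libraries. The log2 difference was -0.26 ± 0.048 (SE), and Setd1b passed the quasi-likelihood test of edgeR (Benjamini-Hochberg adjusted p = 0.0368 over all genes). This was 1 of 10 members called, where 6.91% of the 13104 genes tested in ESCs were called at an adjusted p of at most 0.05. The call was lost when any of the 6 libraries was left out (edgeR adjusted p between 0.0767 and 0.136). It was also lost with the trends with GC content and exon length removed (log2 difference -0.11, edgeR adjusted p = 0.268) and in a fit of all 12 libraries (edgeR adjusted p = 0.234). With the replicate number as a block, the log2 difference was -0.26 ± 0.089 (SE, edgeR adjusted p = 0.414), and 5 genes were called in all instead of 906.

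The relative of Setd1b, Setd1a, was measured at 37.2, 33.8 and 35.6 CPM in vehicle ESCs and at 32.8, 36.2 and 34.4 CPM in exposed ESCs. These groups overlapped, and the log2 difference was -0.029 ± 0.053 (SE, edgeR adjusted p = 0.760). Kmt2b, which acts with menin at CpG-rich and bivalent promoters, was measured at 163, 157 and 153 CPM in the vehicle libraries and at 138, 143 and 147 CPM in the exposed libraries. The exposed libraries again lay below the vehicle libraries, with a log2 difference of -0.13 ± 0.037 that did not pass the test (edgeR adjusted p = 0.0798). With GC and length trends removed, this difference turned to 0.036 ± 0.033.

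The other catalytic genes overlapped between the exposures in ESCs. Kmt2a, the homologue of trithorax and the founding MLL protein, was measured at 88.1, 77.5 and 76.1 CPM without and at 80.8, 92.0 and 93.4 CPM with exposure, a log2 difference of 0.16 ± 0.077 (edgeR adjusted p = 0.236). The enhancer enzymes gave smaller values, with 0.090 ± 0.045 for Kmt2c (edgeR adjusted p = 0.238) and 0.033 ± 0.048 for Kmt2d (edgeR adjusted p = 0.694). With GC and length trends removed, the log2 difference of Kmt2d was 0.19 ± 0.036 (edgeR adjusted p = 0.0879) and that of Kmt2a 0.21 ± 0.072, and neither passed the test.

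Of the core genes in ESCs, Ash2l and Rbbp5 had groups that did not overlap, in opposite directions. Ash2l was measured at 471, 471 and 470 CPM in the vehicle libraries and at 489, 489 and 490 CPM in the exposed libraries, a log2 difference of 0.072 ± 0.022 (edgeR adjusted p = 0.0963). The SD of Ash2l was 0.150% of its mean in vehicle ESCs, below the counting error of 0.924% that its lowest count of 11716 gives. Rbbp5 was measured at 147, 154 and 151 CPM without and at 146, 139 and 142 CPM with exposure, a log2 difference of -0.067 ± 0.030 (edgeR adjusted p = 0.202). Wdr5 (-0.020 ± 0.053) and Dpy30 (-0.011 ± 0.047) overlapped between the exposures (edgeR adjusted p = 0.837 and 0.903). In all, 4 members had groups that did not overlap in ESCs, against 32.6% of all genes tested, and 3 had an unadjusted p under 0.05, against 28.7%. The study's looser rule asks for an unadjusted p under 0.01 with a log2 difference over 0.25 in size. Applied here to edgeR p-values, where the study used DESeq2, it called Setd1b as the single member, against 4.94% of all genes.

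In EpiLCs, Kmt2c and Kmt2a stood higher in all 3 exposed libraries, and no member passed the test. Kmt2c was measured at 52.3, 50.7 and 55.9 CPM in the vehicle libraries and at 69.0, 71.3 and 63.8 CPM in the exposed libraries. The groups did not overlap, and the log2 difference was 0.36 ± 0.069 (SE, edgeR unadjusted p = 0.00148, adjusted p = 0.151). Kmt2a was measured at 89.3, 81.9 and 83.1 CPM in the vehicle libraries and at 97.7, 107 and 104 CPM in the exposed libraries. The groups did not overlap here either, and the log2 difference was 0.28 ± 0.064 (edgeR adjusted p = 0.172).

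Of the 13717 genes tested in EpiLCs, 0% were called by edgeR at an adjusted p of at most 0.05, and 0 of the 10 members. An unadjusted p under 0.05 was given by 15.1% of all genes and by 2 members, Kmt2a and Kmt2c. The same members had groups that did not overlap, against 21.8% of all genes in either direction and 11.2% with the exposed libraries higher. They were also called by the study's looser rule, again on edgeR p-values, which 3.97% of all genes passed. The study reported a significant increase of Kmt2c in exposed EpiLCs from these same data, which is not separate support. DESeq2 called Kmt2c (adjusted p = 0.0410), where it called 0.634% of all genes, and the edgeR fit of all 12 libraries called it too (adjusted p = 0.0188), where 3.31% of 12410 genes were called. With the replicate number as a block, the log2 difference of Kmt2c was 0.36 ± 0.15 and that of Kmt2a 0.28 ± 0.14 (SE, edgeR adjusted p = 0.999 for both). With GC and length trends removed, the difference of Kmt2c was 0.19 ± 0.081 (edgeR adjusted p = 0.374) and that of Kmt2a 0.17 ± 0.077 (edgeR adjusted p = 0.406).

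The remaining catalytic genes of EpiLCs overlapped between the exposures. Setd1a was measured at 31.3, 27.1 and 23.9 CPM without and at 28.0, 32.8 and 35.4 CPM with exposure, a log2 difference of 0.23 ± 0.13 (edgeR adjusted p = 0.452). Setd1b was measured at 26.8, 33.7 and 28.2 CPM without and at 35.2, 26.7 and 33.0 CPM with exposure, a log2 difference of 0.097 ± 0.13 (edgeR adjusted p = 0.775). Kmt2b gave 0.074 ± 0.072 (edgeR adjusted p = 0.675) and Kmt2d 0.0066 ± 0.090 (edgeR adjusted p = 0.980). All 6 catalytic genes thus had a fitted difference above 0, by 0.0066 to 0.36, with a median of 0.16, where the median over all genes tested was 0.0030. With GC and length trends removed, that of Kmt2d was below 0.

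The core genes of EpiLCs lay close to 0 in both directions. Rbbp5 gave 0.066 ± 0.12 and Ash2l 0.0036 ± 0.068, and Wdr5 gave -0.046 ± 0.075 and Dpy30 -0.086 ± 0.092 on the log2 scale. Their edgeR adjusted p-values were between 0.702 and 0.986. In each of these genes the exposed and vehicle libraries overlapped, and the median of the 4 differences was -0.021.

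**Figure D2:**
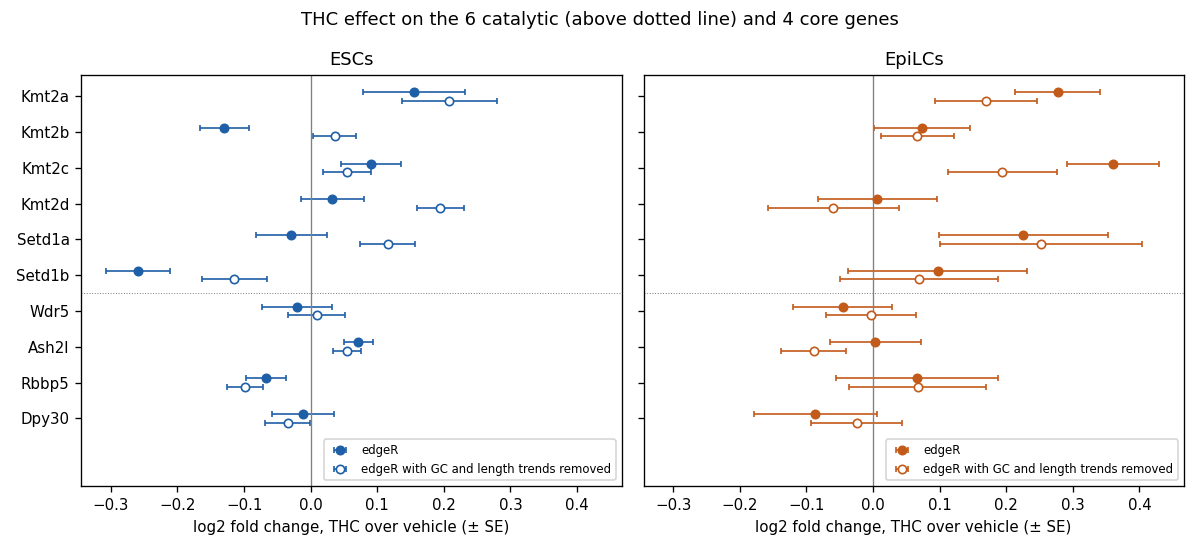
Fitted log2 fold change of each member with exposure over vehicle in ESCs (left) and EpiLCs (right), with bars for the SE. Filled points come from edgeR and open points from edgeR with GC and length trends removed from every library, which moved Kmt2c in EpiLCs from 0.36 to 0.19 and Setd1b in ESCs from -0.26 to -0.11.

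An interaction term over the 12 libraries tested whether the exposure effect differed between ESCs and EpiLCs. No member passed, where 4 of 12410 genes (0.0322%) did with edgeR at an adjusted p of at most 0.05. An unadjusted p under 0.05 was given by 3 members, Kmt2b, Kmt2c and Setd1b, against 13.7% of all genes. The effect on Setd1b was 0.37 ± 0.15 higher in EpiLCs than in ESCs on the log2 scale (edgeR adjusted p = 0.296). That on Kmt2c was 0.29 ± 0.087 higher (edgeR adjusted p = 0.171) and that on Kmt2b 0.22 ± 0.085 higher (edgeR adjusted p = 0.283). With GC and length trends removed, these values were 0.19 for Setd1b, 0.15 for Kmt2c and 0.044 for Kmt2b. The call of Setd1b in ESCs is therefore not shown to be particular to that cell type.

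Within each library, the catalytic genes were then set against the core genes as the difference of their mean log2 CPM, which hardly depends on the scaling of the library. In ESCs this difference was -1.65, -1.76 and -1.83 in the vehicle libraries and -1.86, -1.75 and -1.68 in the exposed libraries. The groups overlapped, with means of -1.75 ± 0.091 and -1.76 ± 0.092 (SD, n = 3). The exposed minus vehicle value was -0.016, but 0.10 with GC and length trends removed and 0.14 with the median over genes in place of the mean. In EpiLCs it was -1.51, -1.50 and -1.47 in the vehicle libraries and -1.28, -1.30 and -1.33 in the exposed libraries, with means of -1.49 ± 0.024 and -1.30 ± 0.022. The exposed EpiLC libraries lay above the vehicle libraries without overlap, by 0.19 on the log2 scale. Without Kmt2c the difference was 0.15, with GC and length trends removed it was 0.13, and with the median over genes it was 0.33. No test was made of this sum over chosen genes.

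**Figure D3:**
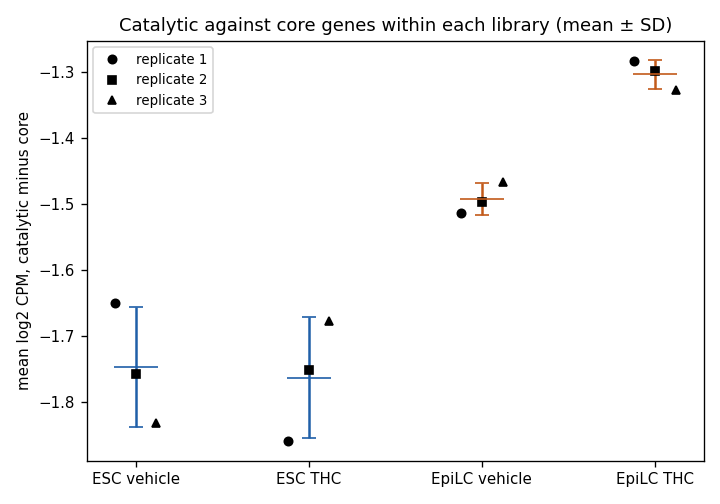
Mean log2 CPM of the 6 catalytic genes minus that of the 4 core genes (vertical axis, log2 scale) in each of the 12 libraries, with horizontal marks for the mean of 3 libraries and bars for the SD. The exposed EpiLC libraries sit between -1.33 and -1.28, above the vehicle EpiLC libraries at -1.51 to -1.47, and the ESC groups overlap.

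The length of the catalytic genes was matched by a trend over all genes in EpiLCs. Genes were put into 10 bins of equal size by exon length. The median log2 difference with exposure went from -0.082 in bin 1, the shortest, to 0.15 in bin 10, the longest, where 84.1% of the genes had a difference above 0. Spearman's rho between exon length and the log2 difference was 0.338 across 13696 genes, which are not independent replicates. Kmt2a, Kmt2c, Kmt2d and Setd1b belong to bin 10. Kmt2c (0.36) and Kmt2a (0.28) lay above its median of 0.15, and Setd1b (0.097) and Kmt2d (0.0066) lay below it. Dpy30, in bin 1, gave -0.086, near the median of -0.082 there. Kmt2d, nearly as long as Kmt2c, had a difference within its SE. By exon GC content in 10 bins of EpiLC genes, Kmt2c belongs to bin 3 (median 0.059) and Kmt2d to bin 10 (median -0.075). The difference between these genes was not tested.

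In ESCs the trend with length was weaker (Spearman's rho 0.0598 across 13083 genes), and the trend with GC content was stronger (rho -0.535 in ESCs and -0.314 in EpiLCs). The median log2 difference in ESCs went from 0.16 in the lowest of 10 GC bins to -0.14 in the highest. Kmt2b (-0.13) lay at the median of that highest bin, while Kmt2d (0.033) and Setd1a (-0.029) lay above it. Setd1b, in bin 9, gave -0.26 against a median of -0.096. Kmt2c (0.090) was near the median of 0.065 of GC bin 3, its own. The part of these trends in the values of the members was tested only by removing them, as given above.

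**Figure D4:**
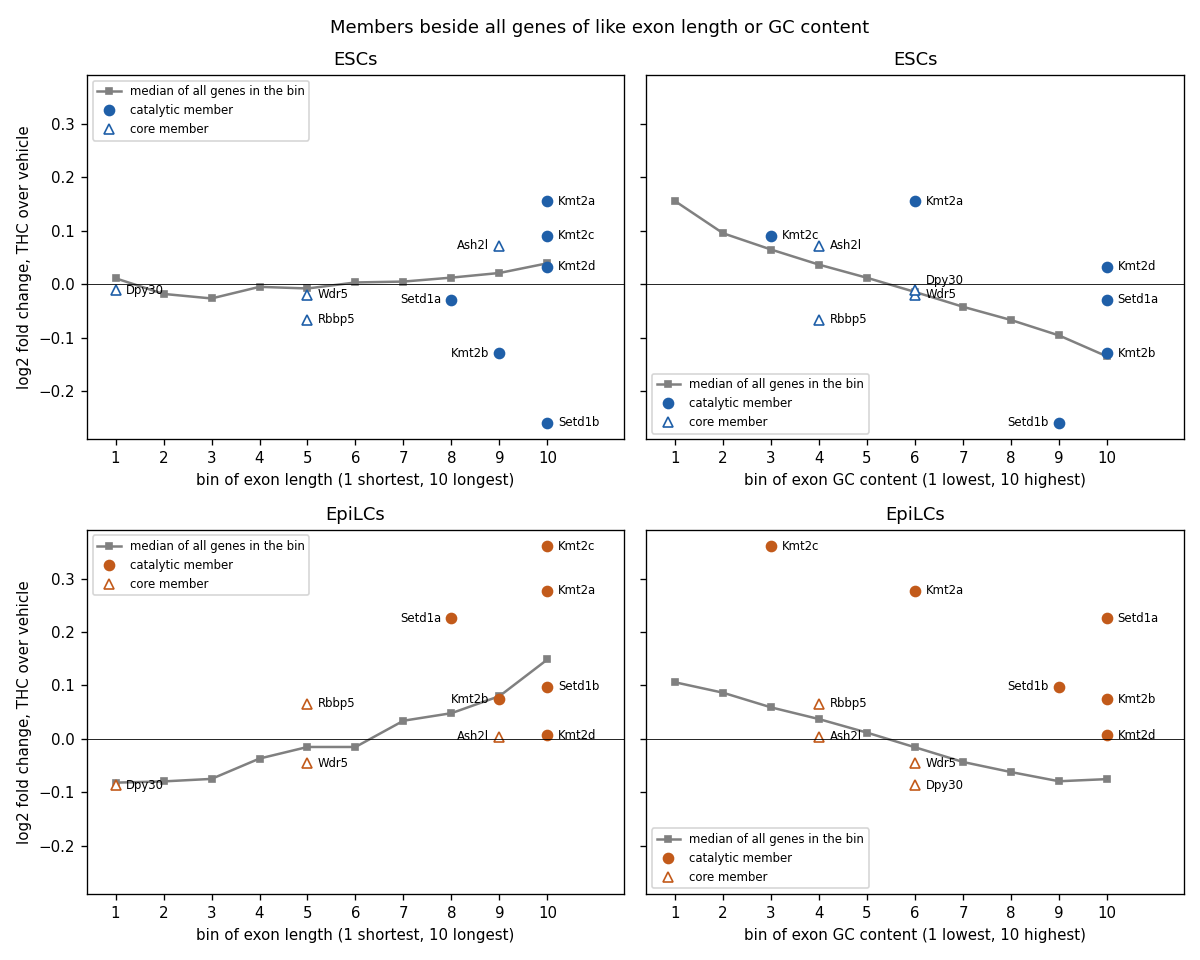
Log2 fold change of the members with exposure (points) beside the median of all genes (grey line) in 10 bins of exon length (left) and exon GC content (right), for ESCs (top) and EpiLCs (bottom). In EpiLCs the median went from -0.082 in the shortest to 0.15 in the longest bin, which holds Kmt2c at 0.36 and Kmt2d at 0.0066. By GC content, Kmt2c lies in bin 3 and Kmt2d in bin 10.

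Related catalytic genes were also compared as ratios of CPM within a library, a description chosen after the values were seen. In ESCs the ratio of Kmt2a to Kmt2b was 0.541, 0.493 and 0.499 without and 0.587, 0.645 and 0.637 with exposure, and the groups did not overlap. In EpiLCs this ratio was 0.837, 0.687 and 0.738 without and 0.775, 0.954 and 0.876 with exposure, with overlap. The ratio of Setd1b to Setd1a in ESCs was 0.970, 1.08 and 0.954 without and 0.882, 0.790 and 0.894 with exposure, also without overlap. In EpiLCs the ratio of Kmt2c to Kmt2d was 0.569, 0.488 and 0.622 in the vehicle libraries and 0.689, 0.822 and 0.635 in the exposed libraries, and the groups did not overlap. In ESCs that ratio was 0.691, 0.752 and 0.723 without and 0.786, 0.719 and 0.750 with exposure, with overlap. The ratio of Setd1b to Setd1a in EpiLCs had means of 1.09 ± 0.21 and 1.00 ± 0.23 and overlapped. Both of the last genes had few counts in EpiLCs, with a minimum of 539 for Setd1a and 636 for Setd1b in a library. The share of all gene pairs whose ratios separate was not computed. Of single genes, 32.6% in ESCs and 21.8% in EpiLCs had groups that did not overlap. Exon GC content was 50.6% for Kmt2a against 58.2% for Kmt2b, and 45.4% for Kmt2c against 58.3% for Kmt2d. The part of the GC trends in these ratios was not tested.

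Genes that work with COMPASS were examined as lists, and the values given for them are log2 differences with exposure. Of the auxiliary subunits, 11 of 12 were in both tables (not Pagr1a), and 2 were called in ESCs, beside 6.91% of all genes. Psip1, which tethers the menin complexes to chromatin, rose by 0.25 (SE 0.046, edgeR adjusted p = 0.0359), from 211 ± 9.09 to 251 ± 11.3 CPM. Cxxc1, the CpG-binding subunit of the SETD1 complexes, fell by 0.23 (SE 0.048, edgeR adjusted p = 0.0435), from 40.1 ± 1.72 to 34.1 ± 1.38 CPM. The median of the list in ESCs was -0.0059, beside 0.0041 over all genes. In EpiLCs none of the 11 was called by edgeR, 2 had an unadjusted p under 0.05 (15.1% of all genes), and the list ran from -0.20 for Men1, which encodes menin, to 0.26 for Kdm6a, the H3K27 demethylase of the KMT2C and KMT2D complexes. Cxxc1 gave -0.17 in EpiLCs (edgeR adjusted p = 0.275), with exposed libraries below vehicle libraries. The median there was 0.12, beside 0.0030 over all genes. Kdm6a has 8.38 kb of exons and Men1 3.84 kb. The part of the length trend of EpiLCs, given above, in this median was not tested.

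Among 6 other SET and SMYD methyltransferases linked to H3K4, Smyd3 fell by 0.19 in ESCs (SE 0.038, edgeR adjusted p = 0.0399). Setd7, a monomethyltransferase, gave the lowest value there (-0.19, edgeR adjusted p = 0.117) and Ash1l the highest (0.16, edgeR adjusted p = 0.236). In EpiLCs none was called, and the values ran from -0.32 for Smyd2 (edgeR adjusted p = 0.347) to 0.34 for Ash1l (edgeR adjusted p = 0.172). None of the 5 H3K4 demethylases was called by edgeR in either cell type, while 2 in ESCs and 1 in EpiLCs had an unadjusted p under 0.05, beside 28.7% and 15.1% of all genes. In ESCs they ran from -0.16 for Kdm5c to 0.10 for Kdm5a (edgeR adjusted p = 0.0579 and 0.0714), and in EpiLCs from -0.11 for Kdm5c to 0.38 for Kdm5a (edgeR adjusted p = 0.717 and 0.286).

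The enzymes of H2B ubiquitination and the Paf1 complex act upstream of COMPASS. Of these 10 genes, Cdc73, the Paf1 subunit also known as parafibromin, rose by 0.24 in ESCs (SE 0.049, edgeR adjusted p = 0.0418), and the lowest value was -0.072 for the ubiquitin ligase gene Rnf40. In EpiLCs none was called. The range there was -0.26 for Paf1 (exposed libraries below vehicle libraries) to 0.18 for the conjugating enzyme gene Ube2b. Of 9 readers of methylated H3K4, 8 were in both tables (not Ing4). Spin1 rose by 0.14 in ESCs (SE 0.029, edgeR adjusted p = 0.0427), and the lowest value there was -0.032 for Phf8. In EpiLCs the readers ran from -0.10 for Ing1 to 0.26 for Bptf, a subunit of the NURF remodeller, and none was called. Over the 5 lists, edgeR called 5 of the 40 genes in ESCs, 3 of them higher, beside 6.91% of all genes. DESeq2 called 4, namely Psip1, Cxxc1, Cdc73 and Kdm5c. With GC and length trends removed, edgeR called 0 of the 40, and 2 of all 13104 genes. The calls of Psip1, Cxxc1, Smyd3, Cdc73 and Spin1 were each lost when any of the 6 libraries was left out (edgeR adjusted p between 0.0721 and 0.147), with the replicate number as a block (0.414 to 0.446) and in the fit of all 12 libraries (0.0835 to 0.482). In EpiLCs edgeR and DESeq2 called 0 of the 40, and 6 had an unadjusted p under 0.05 with edgeR, beside 15.1% of all genes. Of the genes highest in their lists there, Ash1l, Kdm5a and Bptf have 14.8, 14.2 and 14.1 kb of exons, and Ube2b has 2.13 kb. The part of the length trend in these values was not tested.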

How the data were processed

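RNA was sequenced in 12 libraries of mouse ESCs and EpiLCs. The 6 PGCLC libraries were not analysed here. The authors aligned reads with STAR and kept reads mapped to a single place. They counted reads over exons with HTSeq in union mode without strand, removed genes with low counts and adjusted the counts with ComBat-seq. The deposited values are these adjusted counts, as whole numbers without scaling to library size, and ESCs and EpiLCs have a table each. The genome is named as both mm10 and GRCm39. The batches were not given in the sources used here. The study names a KAPA kit and an ABClonal kit for library preparation and does not say which library was made with which. All columns were mapped to libraries by their labels, and 0 were left over. Fold changes and p-values that the authors deposited were not used.

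Gene names, positions, exon length and GC content came from GENCODE M21 (GRCm38), matched by gene identifier, and 14390 of 14411 genes had a length and GC content. Read counting did not use them. Within a cell type, exposed and vehicle libraries were compared by the quasi-likelihood test of edgeR 4.0.16 in R 4.3.3, with TMM normalization. Genes whose total exceeded 10 counts were tested, p-values were adjusted by Benjamini-Hochberg over all of them, and the threshold was 0.05. The SE was derived from the F statistic and the fitted difference. The interaction was fitted over 12 libraries and 12410 shared genes. CPM were computed with TMM factors over the 12 libraries for the members and within each table for all other genes, and log2 CPM used a prior count of 2. Totals per library were 23427551 to 32096698 counts, and the lowest count of a member in a library was 539, for which counting error is 4.31%.

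The members and lists were chosen with earlier results of these data known. The genes named are the 10 members, the markers, every listed gene with an adjusted p of at most 0.05, and in each list and cell type the genes with the highest and lowest fitted difference. Cxxc1 in EpiLCs and Kdm5c among the calls of DESeq2 were named after their values were seen.

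The alternatives were RLE normalization, no filter, a minimum of 10 counts per library, a block for the replicate number, offsets for GC content and exon length (natural splines in each library, 5 degrees of freedom each), these offsets with the block, DESeq2 1.42.0, all 12 libraries in 1 fit, and each library left out in turn. For the catalytic and core genes, another prior count, the median and each gene left out were tried. Tables and figures were made with pandas 2.3.3 and matplotlib 3.10.9 in Python 3.11.15.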

Additional observations from a re-analysis of the deposited data

How the results depend on the processing

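In ESCs, 1 member (Setd1b) was called with RLE normalization, with at least 10 counts in every library and with DESeq2. No member (0) was called with the GC and length offsets, with the offsets and the replicate block, in the fit of all 12 libraries, and without any of the 6 libraries in turn (0 to 0). The adjusted p of Setd1b ranged from 0.0228 to 0.906 over its alternatives. Over all genes in ESCs the count of calls was 906, and it was 2 with the offsets, 3 with the offsets and the block, 31 in the fit of all 12 libraries and 0 to 1 without a library. In EpiLCs, DESeq2 and the fit of all 12 libraries each called 1 member (Kmt2c) in place of 0, and 87 and 411 of all genes in place of 0. The interaction called 0 members under every alternative, while its count over all genes was 4, and 133 with DESeq2, 16 with the offsets, and 0 with the block and without any library. The cause of these changes was not tested. The filter on total counts removed no gene, since the lowest gene totals were 82 in ESCs and 80 in EpiLCs, so the fit without it was the same fit and says nothing about stability.

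Same-numbered libraries deviated in opposite directions (correlations between -0.987 and -0.977). They did not deviate together, but these counts were already batch-adjusted for batches that are not given. The deviations therefore cannot show whether the libraries were paired by number. Same-numbered libraries were not independent of each other. With the replicate number as a block, 0 members were called in ESCs and 0 in EpiLCs, 5 genes were called in all in ESCs and 0 in EpiLCs, and the adjusted p of Setd1b was 0.414. In these adjusted counts, no library correlated best with its own number.

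The catalytic minus core difference with exposure, -0.016 in ESCs, was 0.14 with the median over genes and 0.10 with the offsets, and -0.059 to 0.032 without a library. In EpiLCs, 0.19 became 0.33 with the median over genes, 0.13 with the offsets, 0.15 without Kmt2c, 0.22 without Kmt2d, 0.22 without Rbbp5 and 0.16 without Dpy30, and 0.18 to 0.20 without a library.

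Log2 differences of single members that changed sign were not past the threshold in either direction. In ESCs, the offsets gave 0.036 for Kmt2b, 0.12 for Setd1a and 0.0089 for Wdr5, and the offsets with the block gave 0.036, 0.12 and 0.0090. Leaving out a library gave -0.0019 to 0.069 for Kmt2d, -0.065 to 0.0084 for Setd1a, -0.062 to 0.0083 for Wdr5 and -0.031 to 0.024 for Dpy30. In EpiLCs, the offsets gave -0.060 for Kmt2d and -0.089 for Ash2l, the same as with the block (-0.060 and -0.089). Leaving out a library gave -0.037 to 0.076 for Kmt2d, -0.092 to 0.0044 for Wdr5, -0.025 to 0.043 for Ash2l and -0.033 to 0.15 for Rbbp5. The interaction with the offsets was -0.027 for Kmt2a, 0.0087 for Wdr5 and 0.033 for Dpy30, and without a library it was -0.050 to 0.058 for Kmt2d, -0.044 to 0.040 for Wdr5 and -0.12 to 0.0081 for Dpy30. The other results for single members kept their direction, including the EpiLC over ESC ratios of all 10 under 8 alternatives each.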

Other observations

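Among the markers, Pou3f1 and Sox3, transcription factors of the formative and neural programmes, were called in ESCs. These were 2 of the 5 EpiLC markers tested in ESCs, beside 6.91% of all genes, and no marker of the other lists was called there. The rest of the EpiLC markers went in both directions in ESCs. Otx2 gave a log2 difference of 0.22, with exposed libraries above vehicle libraries (edgeR adjusted p = 0.122), Dnmt3a gave 0.013 and Dnmt3b -0.042. Pou3f1 fell by 0.96 on the log2 scale, from 3.83 ± 0.23 to 1.97 ± 0.18 CPM (SD, n = 3, edgeR adjusted p = 0.0265), and Sox3 fell by 0.40, from 3.99 ± 0.25 to 3.02 ± 0.19 CPM (edgeR adjusted p = 0.0498). Both calls were lost when any of the 6 libraries was left out (edgeR adjusted p between 0.0721 and 0.157), with the replicate number as a block (0.414 and 0.482) and with GC and length trends removed (0.0807 and 0.579). The fit of all 12 libraries called Pou3f1 (0.0294) and not Sox3 (0.119). DESeq2 gave no adjusted p for either gene. Both are low in ESCs and have exons of 63.9% and 66.4% GC. In EpiLCs, where Pou3f1 stood at 150 CPM and Sox3 at 26.8 CPM in the vehicle libraries, neither was called (edgeR adjusted p = 0.579 and 0.777).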
